A study of Mus musculus with 6 samples.

Results

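The genes described here are 47 genes of PI3K, AKT and mTOR signalling, from the insulin receptor to AKT, mTOR, FOXO and AMPK. They were chosen by name from the expression table of mouse livers, in which all 47 were found among 31950 genes. RNA from 6 livers of C57BL/6 mice aged 8 weeks was sequenced, 3 of them WT and 3 β-cateninΔ(ex3)/+. The mutant livers carry a *Ctnnb1* allele without exon 3, whose product escapes the phosphorylation that marks β-catenin for destruction. For its metabolic analysis the study made such livers in mice with a floxed exon 3 allele and the ERT2-Alb-Cre transgene. The Cre recombinase of this transgene is active in hepatocytes (albumin promoter) once tamoxifen is given. The labels name the genotype only, and the sources used here do not say which mouse model gave the sequenced livers. Neither the Cre status nor the tamoxifen treatment of the WT mice is given there.

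Insulin and IGF1 bind receptor tyrosine kinases that phosphorylate the IRS adaptors. The adaptors recruit PI3K, which makes the membrane lipid PIP3, and PIP3 brings AKT to PDK1 and to mTOR complex 2 for activation. AKT relieves the TSC brake on Rheb and so activates mTOR complex 1 (mTORC1), which drives protein synthesis, and it keeps the FOXO transcription factors out of the nucleus. In the liver this route connects feeding with lipid synthesis and with the silencing of glucose production. Much of it works through phosphorylation, which RNA levels do not show. The study asked which kinase gene rises with β-catenin activation, and *Akt2* is the kinase it follows.

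Levels are FPKM, fragments relative to transcript length and to all mapped fragments, so that levels of different genes can be set side by side. Differences are β-cateninΔ(ex3)/+ minus WT on the log2(FPKM + 1) scale, on which the change of low genes is understated. A gene was called higher or lower when limma's Benjamini-Hochberg adjusted p was under 0.05 and the change at least 2-fold. Only the 13243 genes that averaged 0.5 FPKM or more over the livers were tested. The depth, estimated from the steps between low FPKM, was 24.5 to 24.7 M fragments in WT and 16.9 to 19.6 M in β-cateninΔ(ex3)/+ livers.

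The groups differed in more than the pathway. The summed FPKM of 5 genes of the young liver (*Afp*, *H19*, *Igf2*, *Dlk1* and *Gpc3*) was 3813 to 3880 in the livers labelled WT and 3.98 to 4.39 in β-cateninΔ(ex3)/+ livers, and all 5 genes were called lower. *Xist*, transcribed from the inactive X chromosome, had a mean of 21.2 FPKM in WT and 0.00913 FPKM in β-cateninΔ(ex3)/+ livers, while the Y-linked *Eif2s3y* had 0.00563 and 9.51 FPKM. Genotype, sex-linked expression and young-liver expression therefore cannot be told apart in any comparison below. Of 5 hepatocyte markers, *Alb* (41430 FPKM in WT and 24840 FPKM in β-cateninΔ(ex3)/+ livers), *Apoa1* and *Ttr* were lower and *Cps1* (89.0 and 177 FPKM) was higher at an adjusted p under 0.05, and *Apob* did not pass (27.1 and 79.1 FPKM). Of 6 β-catenin target genes of the liver, 4 were called higher, and at an adjusted p under 0.05 and any fold 5 were higher and 1, *Cyp2e1*, was lower (1672 and 1422 FPKM). Of 6 endothelial and 6 stellate cell markers, all had an adjusted p under 0.05 and were lower, and of 8 leukocyte and Kupffer cell markers 6 were higher and 1 was lower by the same criterion. Summed FPKM of the stellate list was 84.0 to 87.0 in WT and 24.1 to 27.0 in β-cateninΔ(ex3)/+ livers, and that of the leukocyte and Kupffer list 188 to 196 and 491 to 496. In whole liver, fewer cells of a type and less RNA per cell cannot be told apart. Their part in the results below was not tested.

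Most of the pathway genes moved by less than 2-fold. Of the 47 genes, 41 were tested, and 3 of these were called higher (*Ddit4*, *Inppl1* and *Foxo3*) against 8.17% of all genes tested. Another 2 were called lower (*Sgk1* and *Irs2*) against 4.52% of all genes. At an adjusted p under 0.05 and any fold, 17 genes (41.5%) were higher against 37.4% of all genes, 6 (14.6%) were lower against 19.6%, and 18 did not pass. FPKM of the groups did not overlap for 30 of the 41 genes (73.2%), against 66.0% of all genes. These shares are near the background. The median log2 difference was 0.24 over the 41 genes and 0.14 over all genes tested, and the median absolute difference was 0.34 and 0.35. The remaining 6 genes (*Insr*, *Igf1r*, *Pik3cg*, *Pik3r3*, *Phlpp2* and *Rragd*) were below the filter.

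**Figure D1:**
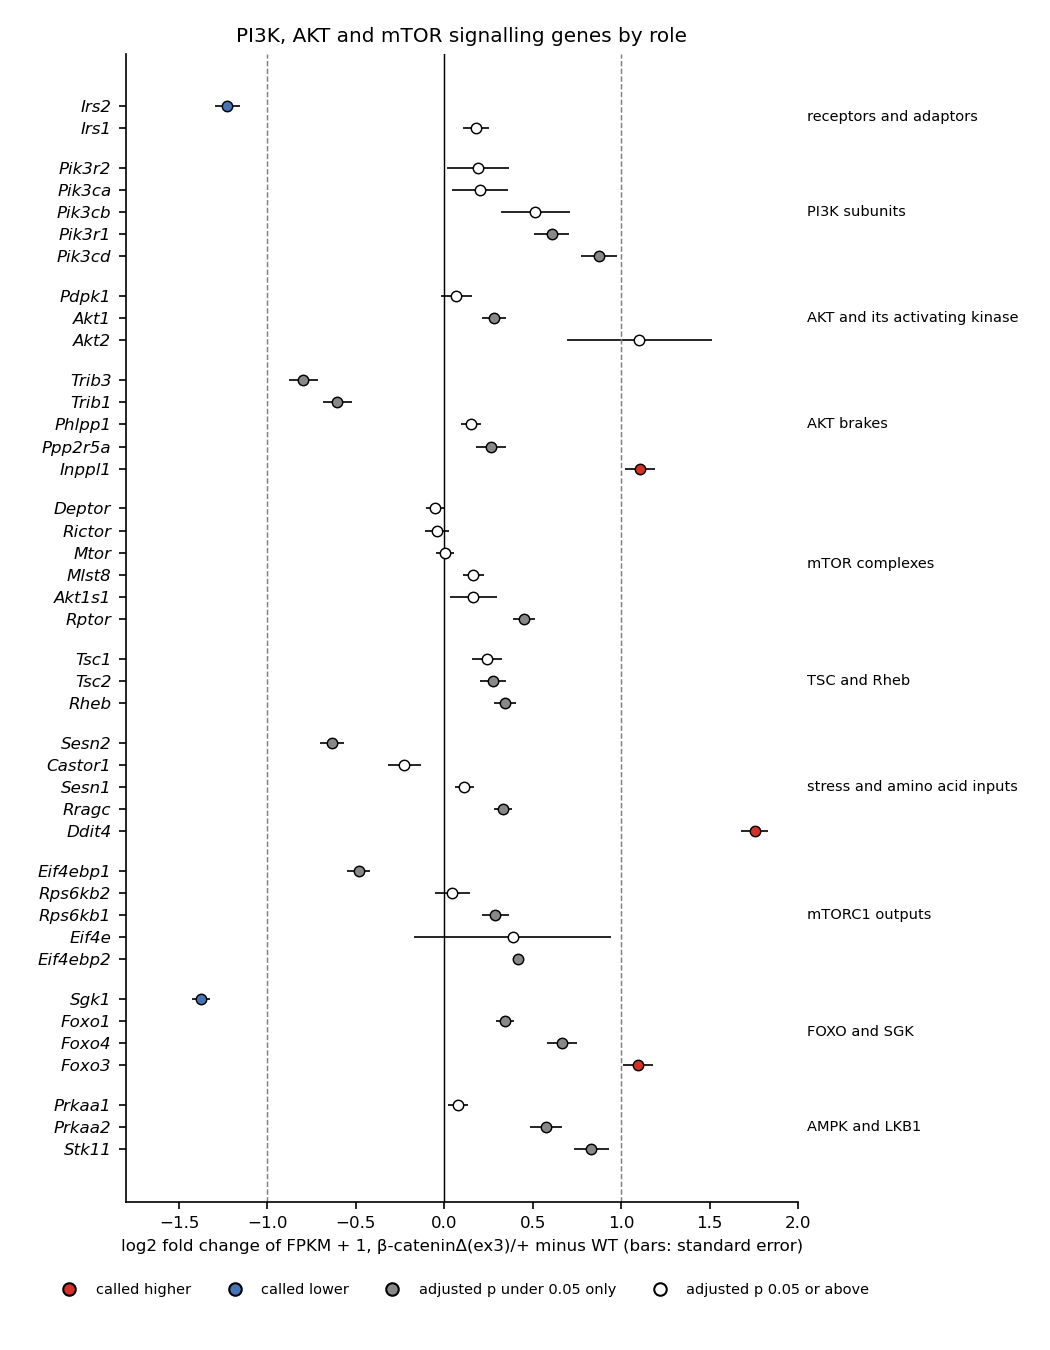
Log2 differences of FPKM + 1 (x axis, β-cateninΔ(ex3)/+ minus WT) with standard errors for the 41 genes tested, grouped by role; dashed lines mark 2-fold. *Ddit4*, *Inppl1* and *Foxo3* lie to the right of the right line with an adjusted p under 0.05 and *Sgk1* and *Irs2* to the left of the left line, while *Akt2* has a difference of 1.10 with a wide standard error.

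The sign of small differences depended on scaling. Median-ratio scaling lowered the median difference of all genes by 0.14 and quantile normalization lowered it by 0.16. The split of the pathway genes at an adjusted p under 0.05 was 17 higher and 6 lower as deposited, 13 and 9 after median-ratio scaling, and 11 and 9 after quantile normalization. Over all genes the same split was 37.4% and 19.6%, then 27.1% and 27.0%, then 25.1% and 29.2%. In the plot of the differences under the scalings, *Ddit4*, *Sgk1* and *Irs2* stayed past 2-fold throughout. *Inppl1* fell to 0.95 and 0.92 and *Foxo3* to 0.96 and 0.95, just under 2-fold, with adjusted p-values between 0.000197 and 0.000244 by limma.

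**Figure D2:**
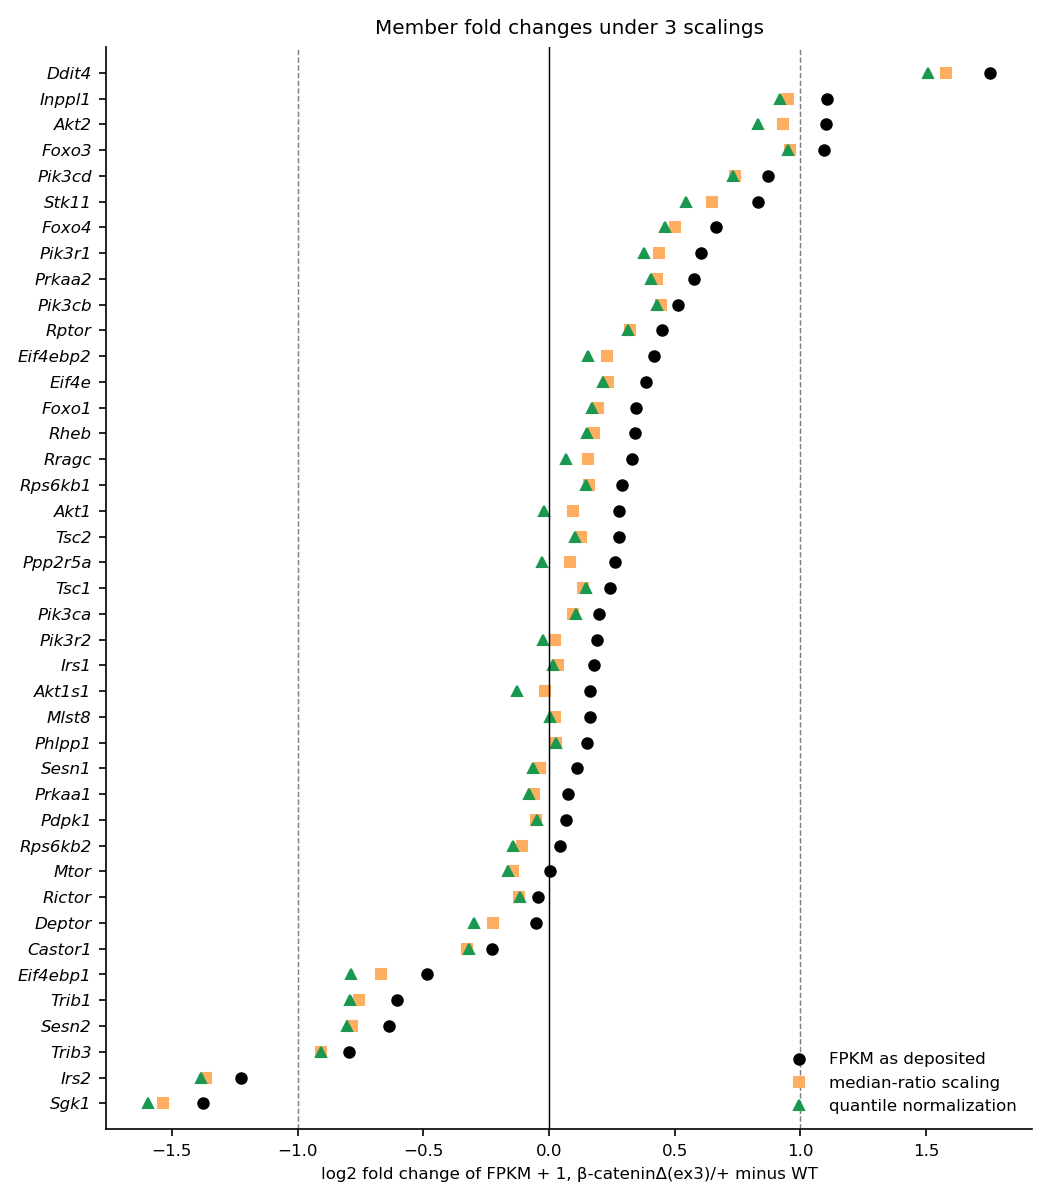
Log2 differences of the 41 genes tested (x axis, β-cateninΔ(ex3)/+ minus WT) from FPKM as deposited, median-ratio scaled and quantile normalized; dashed lines mark 2-fold. *Ddit4* stays right of the right line and *Sgk1* and *Irs2* left of the left line under all 3, while *Mtor* moves from 0.0035 to -0.14 and -0.16.

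AKT kinases phosphorylate TSC2, FOXO and many metabolic proteins, and *Akt2* encodes the form tied most closely to insulin action on metabolism. In WT replicates 1, 2 and 3 *Akt2* stood at 2.69, 9.11 and 9.60 FPKM, and in β-cateninΔ(ex3)/+ replicates 1, 2 and 3 at 15.0, 14.2 and 15.2 FPKM; values per liver are given in this order throughout. The groups did not overlap, but WT replicate 1 stood far below the other WT livers. The log2 difference was 1.10 (standard error 0.41, limma adjusted p = 0.0609), which did not pass the test. It was 0.61 without WT replicate 1 (adjusted p = 0.000987) and 1.37 without WT replicate 3 (adjusted p = 0.047), so the call depends on single WT livers, and over all alternatives the adjusted p ran up to 0.144. The highest WT liver had 3.56 times the FPKM of the lowest. Of 10868 genes that averaged at least 1 FPKM over the livers and were detected in each WT liver, 2.59% had a spread as wide. The study used another test, DESeq2 with a false discovery rate under 0.05 and at least 2-fold, and placed *Akt2* among its up-regulated genes. It also reported higher *Akt2* mRNA and protein in mutant livers and β-catenin binding at the *Akt2* promoter. Protein and binding were not measured here. *Akt1* had 14.9, 13.7 and 16.2 FPKM in WT and 18.98, 17.6 and 18.3 FPKM in β-cateninΔ(ex3)/+ livers. Its log2 difference was 0.28 (standard error 0.069, limma adjusted p = 0.0154), turned to -0.018 after quantile normalization, and missed the threshold without β-cateninΔ(ex3)/+ replicate 1 (adjusted p = 0.0512).

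*Akt1* was more abundant than *Akt2* in every liver. *Akt2* held 15.3%, 39.98% and 37.1% of the summed FPKM of *Akt1* and *Akt2* in WT and 44.1%, 44.6% and 45.4% in β-cateninΔ(ex3)/+ livers. The mean share was 30.8% ± 13.5 (SD, n = 3) and 44.7% ± 0.636 (SD, n = 3), and the difference of 13.9 percentage points became 6.11 without WT replicate 1. The exact permutation test gave p = 0.1, the smallest that 3 livers against 3 allow, and 0.15 after adjustment over 21 such shares. *Pdpk1*, which encodes the AKT-activating kinase PDK1, had 1.54 ± 0.256 FPKM in WT and 1.66 ± 0.111 FPKM in β-cateninΔ(ex3)/+ livers (SD, n = 3 per group), and its groups overlapped.

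Promoter sequence of the pathway genes was searched, because β-catenin acts through TCF/LEF factors. RefSeq promoter windows of 250 bases before each start (build GRCm38.p6) were found for 41 of the 47 genes, 60 windows in all. They were searched on both strands for TCF/LEF words (CTTTGAA is the first of them, CTTTGAT the next, CTTTGTA another and CTTTGTT the last) and for FOXO words (GTAAACA as well as its variant GTAAATA); TCF/LEF and FOXO words did not overlap each other in the windows shown. The windows below are those with at least 2 TCF/LEF words among the genes tested, with the words in capitals, in the direction of transcription.
Akt2, chr7:27591302-27591551, plus strand: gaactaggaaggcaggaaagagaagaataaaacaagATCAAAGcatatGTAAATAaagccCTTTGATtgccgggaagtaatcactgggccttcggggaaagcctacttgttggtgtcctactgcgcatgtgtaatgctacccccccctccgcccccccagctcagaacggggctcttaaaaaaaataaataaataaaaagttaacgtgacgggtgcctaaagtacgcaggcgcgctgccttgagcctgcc
Sgk1, chr10:21978422-21978671, plus strand: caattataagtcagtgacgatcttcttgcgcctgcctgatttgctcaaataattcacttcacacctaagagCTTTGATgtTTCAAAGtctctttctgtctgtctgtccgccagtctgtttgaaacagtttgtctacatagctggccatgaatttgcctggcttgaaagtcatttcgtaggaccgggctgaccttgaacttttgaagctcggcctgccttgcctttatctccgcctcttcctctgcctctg
Pik3cd, chr4:149698709-149698958, minus strand: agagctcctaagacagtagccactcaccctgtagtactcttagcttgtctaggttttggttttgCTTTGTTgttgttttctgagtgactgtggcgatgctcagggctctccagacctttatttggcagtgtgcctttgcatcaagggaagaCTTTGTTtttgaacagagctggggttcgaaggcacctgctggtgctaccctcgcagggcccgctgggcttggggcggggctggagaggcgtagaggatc
In the *Akt2* window the word CTTTGAT lies on each strand, starting 190 and 214 bases before the start, with the FOXO word GTAAATA between them. Of the 4 *Akt2* windows in RefSeq, only this one and the one at chr7:27607086-27607335 held a TCF/LEF word. *Sgk1*, called lower, also held such words, whereas the windows of *Ddit4*, *Foxo3*, *Inppl1* and *Irs2* held none. Over the pathway genes 16.7% of the windows held a TCF/LEF word against 14.8% of all 32851 windows, and 5.00% held a FOXO word against 5.76%. The median GC content was 61.0% in the windows of the pathway genes and 52.4% in all windows. The words consist mostly of A and T, and the shares were not matched for GC content. A match is a matter of letters only and binding was not measured here.

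Upstream of AKT, *Irs2* was the gene called lower. *Irs2*, which encodes the adaptor that FOXO induces in fasting, had 4.75, 4.95 and 5.06 FPKM in WT and 1.69, 1.56 and 1.35 FPKM in β-cateninΔ(ex3)/+ livers. Every mutant liver was below every WT liver, with a log2 difference of -1.23 (standard error 0.069, limma adjusted p = 2.8e-05). *Irs1*, the other adaptor, had 2.60 ± 0.188 FPKM in WT and 3.08 ± 0.253 FPKM in β-cateninΔ(ex3)/+ livers (SD, n = 3 per group) and did not pass (adjusted p = 0.079). *Irs2* thus held 65.5% ± 1.47 (SD, n = 3) of the summed IRS FPKM in WT and 33.2% ± 0.812 (SD, n = 3) in β-cateninΔ(ex3)/+ livers. The groups did not overlap, so that *Irs2* was the larger of the pair in each WT liver and the smaller in each mutant liver.

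Both receptor genes were low. *Insr*, the insulin receptor, had 0.384 to 0.427 FPKM in WT and 0.466 to 0.508 FPKM in β-cateninΔ(ex3)/+ livers, and *Igf1r*, the IGF1 receptor, 0.261 to 0.361 and 0.0894 to 0.109 FPKM. Without the filter *Igf1r* had a log2 difference of -0.26 (limma adjusted p = 0.00377) and *Insr* of 0.075 (adjusted p = 0.288). *Igf1r* held 43.7% of the summed receptor FPKM in WT and 16.9% in β-cateninΔ(ex3)/+ livers, without overlap.

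Among the PI3K subunits, *Pik3cd* and *Pik3r1* rose. *Pik3cd*, which encodes the catalytic subunit p110δ best known from leukocytes, had 1.57, 1.14 and 1.23 FPKM in WT and 3.03, 3.67 and 3.00 FPKM in β-cateninΔ(ex3)/+ livers. The groups did not overlap, and the log2 difference was 0.87 (standard error 0.10, limma adjusted p = 0.000644), reaching 1.24 at a pseudocount of 0.1. The leukocyte and Kupffer list moved with it (188 to 196 FPKM against 491 to 496), although its pan-leukocyte gene *Ptprc* did not pass the test (0.669 and 0.927 FPKM, adjusted p = 0.517). *Pik3cg*, the catalytic subunit p110γ of leukocytes, went the other way, with 0.141 to 0.190 FPKM in WT and 0.0790 to 0.0953 FPKM in β-cateninΔ(ex3)/+ livers. The part of leukocytes in either was not tested.

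The subunits used widely across tissues varied more between livers. *Pik3ca*, encoding p110α, had 1.05 ± 0.366 FPKM in WT and 1.34 ± 0.336 FPKM in β-cateninΔ(ex3)/+ livers (SD, n = 3 per group), with overlapping groups. *Pik3cb*, encoding p110β, had 0.262 to 0.314 FPKM in WT and 0.510, 0.645 and 1.52 FPKM in β-cateninΔ(ex3)/+ livers, so that replicate 3 stood apart from the other mutant livers (log2 difference 0.51, limma adjusted p = 0.0658). Without β-cateninΔ(ex3)/+ replicate 1 it passed, with 0.66 (adjusted p = 0.0389). *Pik3r1*, which encodes the p85α regulatory subunit, had 4.91, 5.27 and 5.74 FPKM in WT and 9.04, 9.41 and 7.43 FPKM in β-cateninΔ(ex3)/+ livers. Its log2 difference was 0.61 (standard error 0.098, limma adjusted p = 0.00274) and every mutant liver exceeded every WT liver. *Pik3r2* overlapped between the groups (5.69 ± 1.41 and 6.53 ± 0.817 FPKM, SD, n = 3), and *Pik3r3* had 0.301 to 0.348 and 0.406 to 0.699 FPKM. The summed FPKM of the 4 catalytic genes was 2.82 ± 0.286 (SD, n = 3) in WT and 5.55 ± 0.809 (SD, n = 3) in β-cateninΔ(ex3)/+ livers.

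The brakes on AKT moved in both directions. *Inppl1*, which encodes the PIP3 phosphatase SHIP2, had 2.58, 2.13 and 2.83 FPKM in WT and 6.68, 6.64 and 6.30 FPKM in β-cateninΔ(ex3)/+ livers. Its log2 difference was 1.11 (standard error 0.086, limma adjusted p = 0.000109). *Trib1* and *Trib3*, of the Tribbles family, whose products bind AKT or direct proteins to degradation, fell. *Trib3* had 2.14, 2.40 and 2.38 FPKM in WT and 0.892, 1.07 and 0.756 FPKM in β-cateninΔ(ex3)/+ livers (log2 difference -0.80, standard error 0.082, adjusted p = 0.000381). At a pseudocount of 0.1 the difference of *Trib3* was -1.27. *Trib1* had 4.78, 5.44 and 4.75 FPKM in WT and 2.92, 3.25 and 2.65 FPKM in β-cateninΔ(ex3)/+ livers (-0.61, standard error 0.081, adjusted p = 0.00122). For all 3 of these brakes the groups did not overlap.

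The phosphatases that act on AKT itself differed less. *Ppp2r5a*, a regulatory subunit of the phosphatase PP2A, had 12.6 ± 1.28 and 15.3 ± 1.03 FPKM (SD, n = 3; limma adjusted p = 0.0407). It missed the threshold on leaving out any liver but WT replicate 1 and reversed to -0.030 after quantile normalization. *Phlpp1*, which dephosphorylates AKT, had 1.53 ± 0.0631 and 1.81 ± 0.0598 FPKM (SD, n = 3; adjusted p = 0.0568), and *Phlpp2* had 0.491 to 0.591 FPKM in WT and 0.403 to 0.478 FPKM in β-cateninΔ(ex3)/+ livers.

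**Figure D3:**
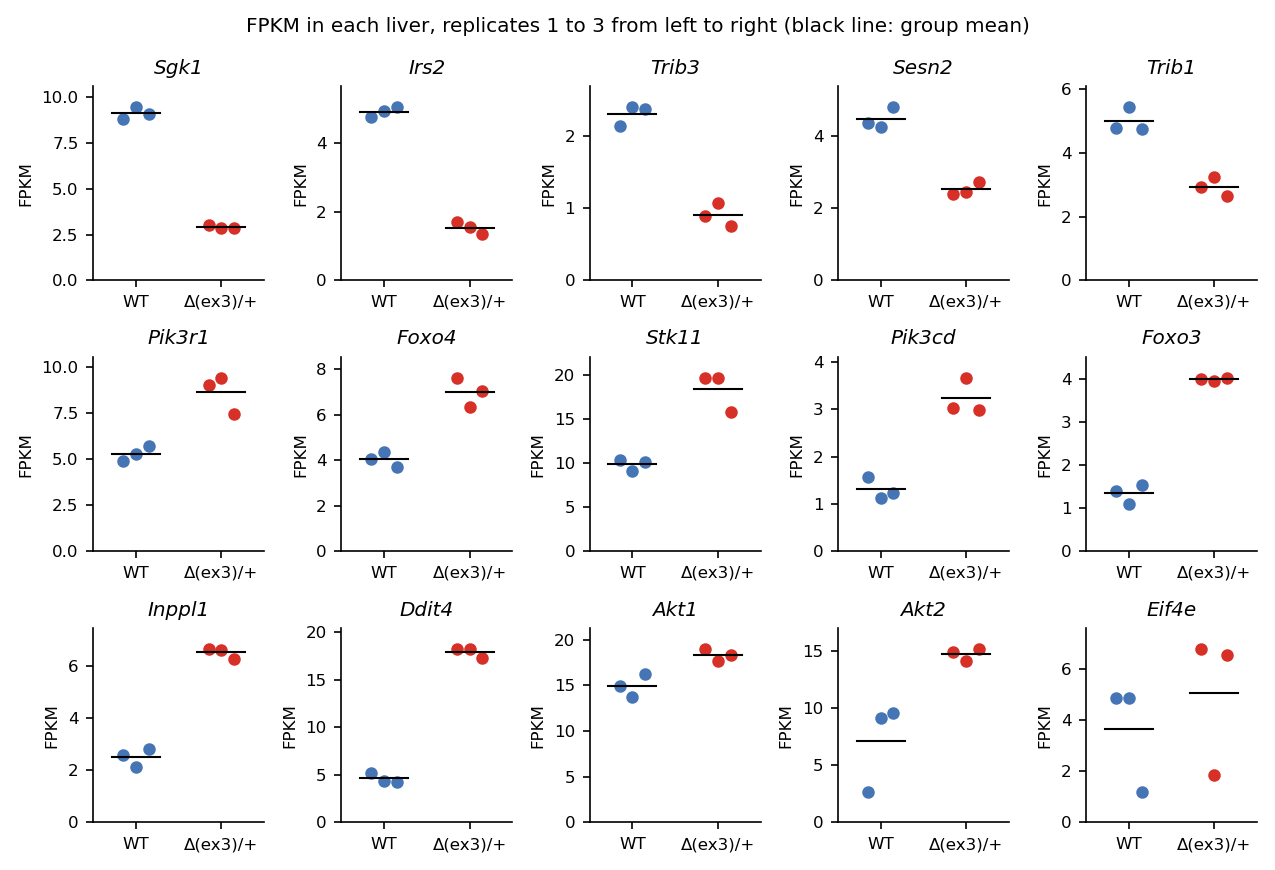
FPKM (y axis, from 0) in each WT (blue) and β-cateninΔ(ex3)/+ (red) liver for the 12 genes with the largest differences at an adjusted p under 0.05, for *Akt1* and *Akt2* and for *Eif4e*; black lines are group means of 3 livers. The groups are apart in the 12 genes, whereas in *Akt2* WT replicate 1 (2.69 FPKM) and in *Eif4e* WT replicate 3 (1.17 FPKM) and β-cateninΔ(ex3)/+ replicate 2 (1.84 FPKM) sit far below the rest of their group.

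Of the mTOR complex genes only *Rptor* passed the test with FPKM as deposited. *Rptor*, which encodes the mTORC1 scaffold raptor, had 1.47 ± 0.0600 FPKM in WT and 2.38 ± 0.165 FPKM in β-cateninΔ(ex3)/+ livers (SD, n = 3 per group), a log2 difference of 0.45 (standard error 0.061, limma adjusted p = 0.00133). *Mtor*, the kinase of both complexes, had 2.86 to 3.01 FPKM in WT and 2.92 to 2.96 FPKM in β-cateninΔ(ex3)/+ livers, and *Rictor*, the scaffold of mTOR complex 2, had 0.620 to 0.684 and 0.510 to 0.692 FPKM. The difference of *Mtor* was 0.0035, and it was -0.14 (adjusted p = 0.0481) and -0.16 (adjusted p = 0.0293) after median-ratio and quantile scaling. *Mlst8*, a subunit of both complexes, had 2.39 ± 0.123 and 2.79 ± 0.142 FPKM (SD, n = 3; adjusted p = 0.0571), while *Akt1s1*, the AKT substrate PRAS40, and *Deptor*, an mTOR inhibitor, overlapped between the groups. The difference of *Deptor* was -0.052, and it was -0.22 (limma adjusted p = 0.012) and -0.30 (adjusted p = 0.00398) after median-ratio and quantile scaling.

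Just upstream of mTORC1, *Rheb*, the GTPase that activates it, had 4.31 ± 0.211 FPKM in WT and 5.73 ± 0.351 FPKM in β-cateninΔ(ex3)/+ livers (SD, n = 3 per group) (log2 difference 0.34, limma adjusted p = 0.00439). *Tsc2*, which with *Tsc1* encodes the brake on Rheb, had 3.01 ± 0.0611 and 3.87 ± 0.417 FPKM (SD, n = 3; 0.28, adjusted p = 0.0201). It did not pass without WT replicate 2 or WT replicate 3 (adjusted p = 0.0542 and 0.0545). *Tsc1* had 0.997 ± 0.176 and 1.36 ± 0.0935 FPKM (SD, n = 3; 0.24, adjusted p = 0.0511) and passed without WT replicate 2 (adjusted p = 0.0486).

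*Ddit4* had the largest difference among the 41 genes tested. It encodes REDD1, a stress-induced inhibitor of mTORC1 that acts through TSC2. *Ddit4* had 5.25, 4.39 and 4.25 FPKM in WT and 18.2, 18.3 and 17.3 FPKM in β-cateninΔ(ex3)/+ livers, a log2 difference of 1.75 (standard error 0.078, limma adjusted p = 1.03e-05). The ratio of means was 3.88, and the log2 difference ran from 1.51 to 1.94 over the alternatives. *Sesn2*, a leucine sensor that restrains mTORC1, fell, with 4.35, 4.25 and 4.80 FPKM in WT and 2.38, 2.46 and 2.71 FPKM in β-cateninΔ(ex3)/+ livers (-0.64, standard error 0.067, adjusted p = 0.000438). *Sesn1* had 3.16 ± 0.136 and 3.49 ± 0.0909 FPKM (SD, n = 3; adjusted p = 0.114). *Sesn2* made up 58.6% of the summed FPKM of *Sesn1* and *Sesn2* in WT and 41.9% in β-cateninΔ(ex3)/+ livers; *Sesn3*, of the wider list below, was left out of this share and had 1.69 ± 0.115 and 1.28 ± 0.0125 FPKM (SD, n = 3; adjusted p = 0.0144).

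Among the other amino acid inputs, *Rragc*, a Rag GTPase that brings mTORC1 to the lysosome, had 8.29 ± 0.447 and 10.7 ± 0.190 FPKM (SD, n = 3; log2 difference 0.33, limma adjusted p = 0.00235). Its paralog *Rragd* was scarce, with 0.403 to 0.543 FPKM in WT and 0.152 to 0.163 FPKM in β-cateninΔ(ex3)/+ livers (without the filter -0.37, adjusted p = 0.00328). *Castor1*, an arginine sensor, had 1.31 ± 0.226 and 0.971 ± 0.106 FPKM (SD, n = 3; -0.23, adjusted p = 0.0803), and it passed without WT replicate 1 (-0.30, adjusted p = 0.0354).

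The outputs of mTORC1 changed within families. Of the 4E-BPs, which block cap-dependent translation until mTORC1 phosphorylates them, *Eif4ebp1* fell from 23.8 ± 1.91 to 16.7 ± 0.364 FPKM (SD, n = 3; log2 difference -0.48, limma adjusted p = 0.00119). *Eif4ebp2* rose from 30.2 ± 0.195 to 40.7 ± 0.415 FPKM (SD, n = 3; 0.42, adjusted p = 0.000104). The summed FPKM of the pair was 54.0 ± 2.10 and 57.4 ± 0.393 (SD, n = 3), with *Eif4ebp2* at 56.0% in WT and 70.9% in β-cateninΔ(ex3)/+ livers. *Eif4ebp3*, of the wider list below, was left out of this sum and share. It had a mean of 3.29 FPKM in WT and 15.4 FPKM in β-cateninΔ(ex3)/+ livers. Counting it would raise the sum and lower the share of *Eif4ebp2*, more so in β-cateninΔ(ex3)/+ livers. The shift in share therefore holds for the pair only. *Rps6kb1*, the S6 kinase that mTORC1 activates, had 1.72 ± 0.214 and 2.32 ± 0.127 FPKM (SD, n = 3; adjusted p = 0.0193), and did not pass in 4 of the 6 fits with 1 liver left out. *Rps6kb2*, its paralog, had 3.90 ± 0.603 and 4.04 ± 0.269 FPKM (SD, n = 3) with overlapping groups.

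*Eif4e*, the cap-binding protein that 4E-BPs hold, could not be compared at this spread. It had 4.86, 4.88 and 1.17 FPKM in WT and 6.78, 1.84 and 6.55 FPKM in β-cateninΔ(ex3)/+ livers, so that 1 liver of each group was far below the others. The log2 difference was 0.39 (standard error 0.56, limma adjusted p = 0.583), -0.092 without WT replicate 3 and 0.86 without β-cateninΔ(ex3)/+ replicate 2. Only 2.04% of genes in WT and 1.93% in β-cateninΔ(ex3)/+ livers had a spread as wide. Counted were genes that averaged at least 1 FPKM over the livers and were detected in each liver of the group. *Eif4e* and *Akt2* were low in different WT livers.

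*Foxo1*, *Foxo3* and *Foxo4* rose and *Sgk1* fell. FOXO factors drive gluconeogenic and stress genes when AKT is inactive, and SGK1 is an AKT-related kinase that also phosphorylates them. *Foxo3* had 1.39, 1.09 and 1.55 FPKM in WT and 3.99, 3.95 and 4.02 FPKM in β-cateninΔ(ex3)/+ livers (log2 difference 1.09, standard error 0.085, limma adjusted p = 0.000109). *Foxo4*, which lies on the X chromosome, had 4.04, 4.38 and 3.70 FPKM in WT and 7.63, 6.35 and 7.03 FPKM in β-cateninΔ(ex3)/+ livers (0.67, standard error 0.083, adjusted p = 0.000884). *Foxo1* had 2.74 ± 0.0865 and 3.75 ± 0.0850 FPKM (SD, n = 3; 0.34, adjusted p = 0.00173).

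The summed FPKM of the 3 FOXO genes was 8.12 ± 0.0310 (SD, n = 3) in WT and 14.7 ± 0.673 (SD, n = 3) in β-cateninΔ(ex3)/+ livers. *Foxo3* grew from 16.6% to 27.1% of it, *Foxo1* shrank from 33.7% to 25.5%, and the share of *Foxo4* overlapped between the groups. *Sgk1* had 8.82, 9.48 and 9.11 FPKM in WT and 3.02, 2.83 and 2.85 FPKM in β-cateninΔ(ex3)/+ livers. Its log2 difference of -1.38 had a standard error of 0.051 (limma adjusted p = 4.82e-06).

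The AMPK branch restrains mTORC1 when energy is low. Of its 3 genes among the 47, 2 (66.7%) were higher at an adjusted p under 0.05, against 37.4% of all genes tested, and none was lower. *Stk11*, which encodes the AMPK-activating kinase LKB1, had 10.4, 9.10 and 10.2 FPKM in WT and 19.7, 19.7 and 15.8 FPKM in β-cateninΔ(ex3)/+ livers (log2 difference 0.83, standard error 0.099, limma adjusted p = 0.000732). *Prkaa2*, the catalytic subunit α2, had 2.35 ± 0.0841 and 4.01 ± 0.543 FPKM (SD, n = 3; 0.58, adjusted p = 0.00226). *Prkaa1*, the subunit α1, had 2.33 ± 0.116 and 2.51 ± 0.0818 FPKM (SD, n = 3; adjusted p = 0.28), and the share of *Prkaa2* in the pair went from 50.2% to 61.3%. Of 9 further genes of the AMPK and LKB1 complexes tested, 1 was higher (*Stradb*, 0.37, adjusted p = 0.0083) and 2 were lower at an adjusted p under 0.05. These are 11.1% and 22.2%, against 37.4% and 19.6% of all genes tested. The lower genes were *Prkab1*, the subunit β1, with 12.4 ± 1.43 and 5.95 ± 0.376 FPKM (SD, n = 3; -0.95, adjusted p = 0.000253), and *Prkag2*, the subunit γ2, with 3.58 ± 0.105 and 2.47 ± 0.261 FPKM (SD, n = 3; -0.40, adjusted p = 0.00374).

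In all, 14 of the 21 family shares did not overlap between WT and β-cateninΔ(ex3)/+ livers, each with p = 0.1 in the exact permutation test and 0.15 adjusted, so that none could pass 0.05. FPKM of single genes did not overlap for 66.0% of all genes tested, which is a different measure. No background was computed for shares, and shares of the same family depend on each other, so nothing is concluded from the count. Each share is taken over the members of a family among the 47 genes, and shares do not change when a whole library is rescaled. The widest shift was that of *Irs2* (-32.2 percentage points), followed by *Igf1r* (-26.8) and *Sesn2* (-16.7).

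**Figure D4:**
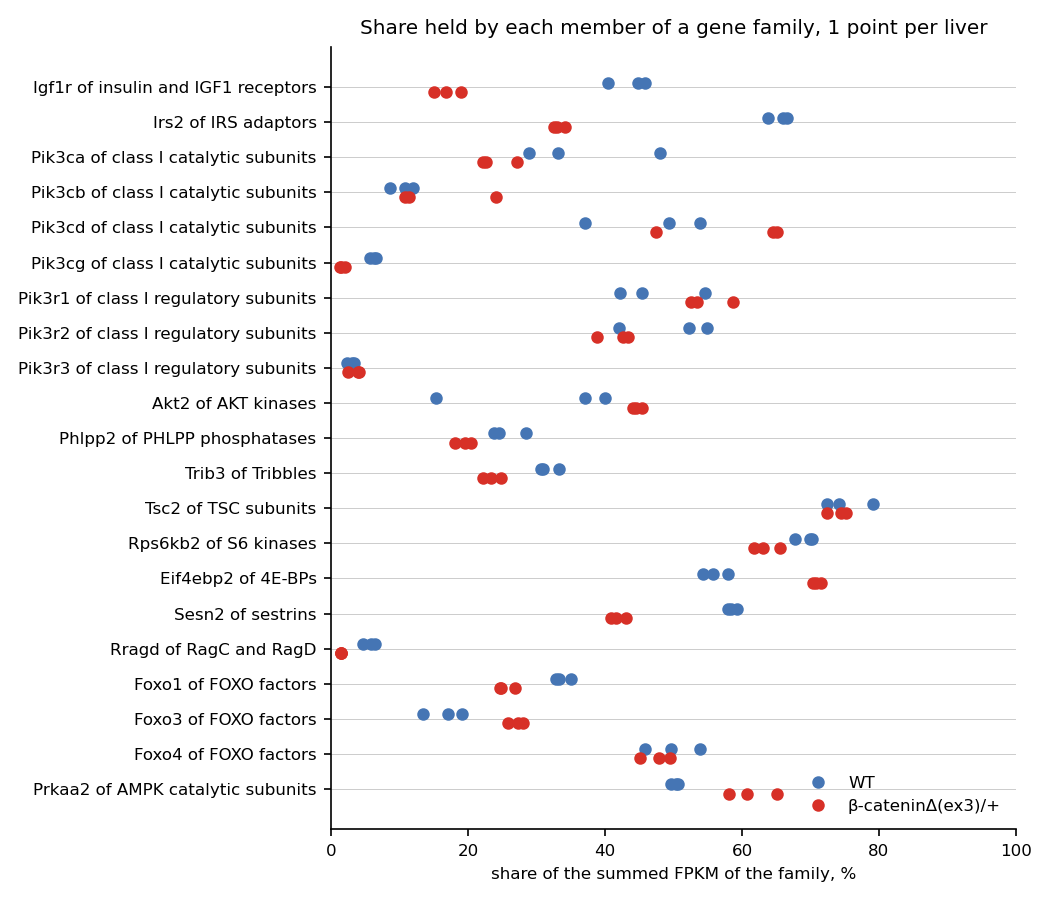
Share of a family's summed FPKM (x axis, %) held by each gene named, with 1 point per WT (blue) or β-cateninΔ(ex3)/+ (red) liver. The points of the groups are apart for 14 of 21 shares, with *Irs2* falling from 65.5% to 33.2%, and overlap for *Pik3cb*, *Pik3cd*, *Pik3r1*, *Pik3r2*, *Pik3r3*, *Tsc2* and *Foxo4*.

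A wider list of 99 other pathway genes was examined, of which 85 were tested. Of these 3 were called higher (*Eif4ebp3*, *Sgk2* and *Ptpn1*) and 1 lower (*Grb10*), which is 3.53% and 1.18% against 8.17% and 4.52% of all genes tested. At an adjusted p under 0.05 and any fold 32 (37.6%) were higher and 15 (17.6%) lower, against 37.4% and 19.6% of all genes, and the median log2 difference was 0.15 against 0.14. *Grb10*, an imprinted adaptor that dampens insulin receptor signalling, had 19.6, 20.4 and 20.5 FPKM in WT and 0.546, 0.560 and 0.508 FPKM in β-cateninΔ(ex3)/+ livers (-3.78, standard error 0.048, limma adjusted p = 6.52e-08). *Sgk2*, a paralog of *Sgk1*, went the other way from it, with 3.02, 3.57 and 2.98 FPKM in WT and 10.6, 9.55 and 10.5 FPKM in β-cateninΔ(ex3)/+ livers (1.43, standard error 0.077, adjusted p = 2.28e-05).

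*Eif4ebp3*, the remaining 4E-BP, had 2.13, 3.79 and 3.94 FPKM in WT and 16.9, 11.6 and 17.7 FPKM in β-cateninΔ(ex3)/+ livers (log2 difference 1.94, standard error 0.23, limma adjusted p = 0.00072). *Ptpn1*, whose product PTP1B dephosphorylates the insulin receptor, had 4.495, 4.02 and 1.02 FPKM in WT and 7.48, 7.08 and 6.95 FPKM in β-cateninΔ(ex3)/+ livers. WT replicate 3 stood apart, and the difference of 1.10 (standard error 0.38, adjusted p = 0.0498) rested at the threshold, with adjusted p-values from 0.00163 to 0.117 over the alternatives. Its difference ran from 0.64 to 1.36 with 1 liver left out.

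Genes that the pathway is known to control in liver were also read. Of 10 FOXO1 target genes, 5 (50.0%) were lower and 3 (30.0%) higher at an adjusted p under 0.05. Of all genes tested, 19.6% were lower and 37.4% higher by the same criterion. *Igfbp1* was at 1057 ± 8.42 FPKM in WT and 18.1 ± 0.714 FPKM in β-cateninΔ(ex3)/+ livers (SD, n = 3 per group), and *G6pc* and *Pck1*, of glucose production, had log2 differences of -2.05 and -1.45 (limma adjusted p = 2.31e-07 and 3.67e-07). *Bcl6*, a transcriptional repressor, was called higher (2.54, adjusted p = 6.66e-07). Of 7 genes of the insulin-induced SREBP1c programme, 5 (71.4%) were called higher and none lower, against 8.17% and 4.52% of all genes tested. The median log2 difference of these 7 genes was 2.02. *Scd1*, a fatty acid desaturase, had 0.808 ± 0.050 and 276 ± 3.12 FPKM (SD, n = 3). *Fasn*, *Acaca*, *Acly* and *Elovl6*, also of fatty acid synthesis, had log2 differences of 3.90, 1.21, 2.02 and 3.06. These lists were chosen with earlier results of the data known, and the young-liver and sex-linked differences given above hold for them too.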

How the data were processed

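The authors deposited 1 table of FPKM, with a column for each liver, from total RNA of 3 WT and 3 β-cateninΔ(ex3)/+ livers; per the labels, poly(A) RNA was sequenced as paired reads. The submitters' processing notes name cutadapt 1.9, HISAT2 2.0.4, StringTie 1.3.4d, DESeq2 and edgeR. The genome build is not given in the sources used here; 28911 of the 31950 genes share both coordinates with GENCODE M21. Neither count tool was run here, since FPKM are not counts, and no counting interval can be given.

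From the FPKM, log2(FPKM + 1) was analysed in limma 3.58.1 (lmFit, then eBayes with trend) in R 4.3.3 for the 13243 genes with a mean of at least 0.5, with Benjamini-Hochberg adjustment over all of them. Family shares were compared by two-sided exact permutation tests. Python 3.11.15, pandas 2.3.3, numpy 2.4.6 and matplotlib 3.10.9 did the rest. Promoter windows are from RefSeq.

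Depth estimates rest on 19.1% to 25.5% of low values lying on steps, against 4% by chance. The labels call the replicates separate samples and name no animals, so p-values measure the spread between these samples. Replicate numbers did not pair the livers (correlations of deviations 0.027, 0.021 and -0.0054).

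The genes and lists were chosen with earlier results of these data known. Each liver's value is given for genes past both thresholds, for *Akt1* and *Akt2*, and for the 12 genes with the largest differences at an adjusted p under 0.05; of the wider lists, genes past both thresholds are named, while *Eif4e*, *Pik3cb*, *Sesn3*, *Stradb*, *Prkab1* and *Prkag2* were singled out after their values were seen. *Tf* was the only listed marker not found. A gene of the SREBP1c list is not reported here. Alternatives were a pseudocount of 0.1, no filter, a filter of 1, median-ratio scaling, quantile normalization, eBayes without trend, a replicate block and leaving out each liver.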

Additional observations from a re-analysis of the deposited data

How the results depend on the processing

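Of 530 comparisons of single pathway genes with an alternative setting, 502 kept their direction and their joint call (adjusted p and 2-fold together), 20 changed sign, 4 gained and 4 lost the call; the adjusted p alone crossed 0.05 in some of the 502, as given for *Akt1* and *Akt2*. Genes called higher numbered 3 as deposited, 5 at a pseudocount of 0.1 (with *Pik3cd* at 1.24 and *Pik3cb* at 1.21), 1 under median-ratio and 1 under quantile scaling, and 3 to 4 with 1 liver left out, where *Akt2* joined without WT replicate 3. At a pseudocount of 0.1 *Trib3* (-1.27) joined *Sgk1* and *Irs2* among the genes called lower. Genes higher at an adjusted p under 0.05 fell to 11 after quantile normalization, and *Rheb*, *Rragc*, *Tsc2*, *Rps6kb1*, *Ppp2r5a* and *Akt1* were those lost. Other pathway genes called lower numbered 2 at a pseudocount of 0.1, 2 under median-ratio and 2 under quantile scaling, and 1 to 2 with 1 liver left out; *Prkab1*, an AMPK subunit, joined *Grb10* (log2 difference -0.95 as deposited, -1.003 without WT replicate 3).

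Changes of sign under median-ratio scaling were those of *Pdpk1* (-0.052), *Mtor* (-0.14), *Akt1s1* (-0.017), *Rps6kb2* (-0.11), *Sesn1* (-0.036) and *Prkaa1* (-0.060). Under quantile normalization they were those of *Akt1* (-0.018), *Pik3r2* (-0.024), *Pdpk1* (-0.046), *Ppp2r5a* (-0.030), *Mtor* (-0.16), *Akt1s1* (-0.13), *Rps6kb2* (-0.14), *Sesn1* (-0.064) and *Prkaa1* (-0.078). Both scalings moved the median of all genes down by their construction. With 1 liver left out, ranges that crossed 0 were -0.010 to 0.017 for *Mtor*, -0.080 to 0.0021 for *Rictor*, -0.029 to 0.14 for *Rps6kb2*, -0.092 to 0.86 for *Eif4e*, and -2.63 to 0.75 percentage points for the share of *Tsc2*. The cause was not tested. *Pik3cb* fell below the filter without β-cateninΔ(ex3)/+ replicate 3 and gave no value there. Of 168 comparisons of family shares, 167 kept direction and moved by less than the larger SD of the groups. For the share of *Akt2* this SD was 13.5 percentage points, with WT replicate 1 far below the other WT livers. The smaller difference without that liver therefore still counted as kept, and this criterion cannot flag a share that rests on 1 outlying liver.

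With a replicate block the pathway genes called were 3 higher and 2 lower, and those at an adjusted p under 0.05 were 17 and 6; the livers share a number only, so no pairing is implied, and no count given changed by more than 1.5 times. FPKM under 0.5 rest on fewer fragments than higher values at the same transcript length and depth. Exact counts were not available to bound their error.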
